A study of Mus musculus with 5 samples.

Results

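Mt1, Mt2 and Hmox1, a pair of metallothionein genes and the gene of the inducible heme oxygenase, were followed through single-cell transcriptomes of mouse plasma cells. The 3 genes, of 33456 in the count tables, were chosen by symbol after their levels, their shares of positive cells, their co-detection and their differences between antibody classes had been seen in these libraries, so those values are given as a description and without p-values. Cells came from untreated, unimmunized male C57Bl6/N mice 8 to 12 weeks old, and each sample pooled 3 mice, with about 1000 cells per population stated by the submitters. Every cell had been sorted in a double round for high CD138 (syndecan-1, the plasma cell surface marker) and against Ly6g and CD11c, then split by B220 (a form of CD45 kept by B cells and younger plasma cells) and by uptake of 2NBDG, a fluorescent analog of glucose. The 5 populations were B220-2NBDG+ cells of bone marrow and 4 from spleen, of which B220+2NBDG+ and B220-2NBDG+ cells had taken up the analog while B220+2NBDG- and B220-2NBDG- cells had not, with 1 library each. With 1 library per group no difference between populations had a replicate check, and cells of 1 library were not treated as replicates.

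Metallothioneins are small cysteine-rich proteins that bind zinc and copper and can take up cadmium and reactive oxygen. Their genes are classically switched on by the zinc-sensing factor MTF1 through metal response elements, and by glucocorticoids and cytokines that act through STAT3. Mt1 and Mt2 are expressed in most tissues, whereas Mt3 is best known from brain and Mt4 from stratified epithelium. Heme oxygenase 1 opens the heme ring and releases biliverdin, iron and carbon monoxide; its gene is repressed by BACH1, can be repressed by BACH2, and is induced by NRF2 through antioxidant response elements. In spleen and bone marrow its best known site is the macrophage that recycles red blood cells, and heme can also inactivate BACH2 during plasma cell differentiation.

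All 3 genes lie on the forward strand of chromosome 8 (GRCm38, GENCODE M21). Mt2 (ENSMUSG00000031762) spans chr8:94172664-94173568 and Mt1 (ENSMUSG00000031765) spans chr8:94179082-94180327, so that 5513 bases separate the end of Mt2 from the start of Mt1. Hmox1 (ENSMUSG00000005413) spans chr8:75093621-75100589. No other annotated gene shared a run of 50 bases with any of the 7 annotated transcripts of the 3 genes, so reads of that length had no second perfect match among transcripts. RefSeq promoter windows, 250 bases before to 50 bases after the annotated start, matched for Mt1 and Mt2, 2 of the 3 genes, and are shown because this pair moved together in the data. Capitals mark the core of the metal response element, TGCACNC or TGCGCNC, searched on both strands.
Mt1, chr8:94178839-94179138, forward strand, GRCm38.p6: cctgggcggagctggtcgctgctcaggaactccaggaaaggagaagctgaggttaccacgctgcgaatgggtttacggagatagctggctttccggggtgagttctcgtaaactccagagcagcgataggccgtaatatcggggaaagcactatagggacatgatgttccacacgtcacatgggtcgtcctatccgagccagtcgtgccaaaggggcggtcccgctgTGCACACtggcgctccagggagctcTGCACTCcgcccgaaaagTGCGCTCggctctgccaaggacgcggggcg
Mt2, chr8:94172368-94172667, forward strand, GRCm38.p6: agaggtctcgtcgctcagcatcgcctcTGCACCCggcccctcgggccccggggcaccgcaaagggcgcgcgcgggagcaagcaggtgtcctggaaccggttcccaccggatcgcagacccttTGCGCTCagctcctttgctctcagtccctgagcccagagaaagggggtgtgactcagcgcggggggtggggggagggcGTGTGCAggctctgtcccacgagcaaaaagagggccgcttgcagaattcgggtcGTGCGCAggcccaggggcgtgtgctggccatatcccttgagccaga

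The Mt1 window held 3 such cores and the Mt2 window 4. Of 32851 RefSeq promoter windows of the same length, 25.7% held at least 1 core, 1.97% at least 3 and 0.517% at least 4. The core of the antioxidant response element, TGACNNNGC, searched on both strands, was found once in the Mt2 window and not in the Mt1 window, and 12.4% of the windows held it. Neither motif overlapped the other in these windows. Annotated starts differ between sources: GENCODE places transcript starts of Mt1 7 bases before the RefSeq start and 122 and 152 bases after it, and those of Mt2 46 and 242 bases after it. A match of letters is a description of the window and not evidence of binding.

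Levels are given in CPM, the unique molecular identifiers (UMIs, counted transcript copies) of a gene relative to all UMIs of the library that came from no immunoglobulin gene. The libraries held 894 to 1296 cell barcodes, 9451886 to 15591435 UMIs and medians of 9829 to 15501.5 UMIs per cell, and immunoglobulin transcripts took 47.0% to 64.8% of them. Plasma cell genes were present throughout: Sdc1, which encodes CD138, lay between 402 and 609 CPM and Xbp1, a factor required for secretion, between 3237 and 4365 CPM. A cluster of 8 cells led by T cell genes was left out, 5468 of 5476 barcodes were kept, and 11 cell barcodes occurred in more than 1 library. The splenic B220+2NBDG- and B220-2NBDG+ libraries stood apart on genes that follow neither gate. The pseudogene Rps18-ps3 had 85.1 and 272 CPM in splenic B220-2NBDG+ and B220+2NBDG- cells, against 4.74 to 12.4 CPM in the other 3 libraries, and the mitochondrial gene mt-Atp8 had 115 and 75.6 CPM in the same 2 libraries, against 310 to 848 CPM. Each of the 5 comparisons between populations sets 1 library of this pair against 1 of the other 3, and the part of this split in the results was not tested.

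Mt1 was highest in bone marrow. It reached 1624 CPM in bone marrow B220-2NBDG+ cells, 109 CPM in splenic B220+2NBDG+ cells, 392 CPM in splenic B220-2NBDG+ cells, 103 CPM in splenic B220+2NBDG- cells and 172 CPM in splenic B220-2NBDG- cells. The order from high to low was thus bone marrow, both splenic B220- populations with the 2NBDG+ one above the 2NBDG- one, and the splenic B220+ populations, whose 95% Poisson intervals of 101 to 118 CPM in 2NBDG+ and 95.6 to 111 CPM in 2NBDG- cells overlapped. Mt2 was at 547 CPM in bone marrow B220-2NBDG+, 38.8 CPM in splenic B220+2NBDG+, 187 CPM in splenic B220-2NBDG+, 12.3 CPM in splenic B220+2NBDG- and 65.5 CPM in splenic B220-2NBDG- cells. Its libraries came in the same order as those of Mt1, except that the 2 B220+ populations were apart, with splenic B220+2NBDG- cells at the bottom. These intervals, like the others given for levels and ratios, cover counting error and not the spread between cells or between mice. They are narrow for that reason: over bone marrow cells the variance of Mt1 UMIs was 43.6 times the mean, whereas Poisson counts have equal variance and mean. In a pooled sample a change in the share of expressing cells and a change per cell cannot be told apart without the counts per cell that follow.

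Hmox1 was sparse. It had 28.0 CPM from 158 UMIs in bone marrow B220-2NBDG+ cells, against 7.11 CPM (39 UMIs) in splenic B220+2NBDG+, 6.83 CPM (27 UMIs) in splenic B220-2NBDG+, 4.95 CPM (33 UMIs) in splenic B220+2NBDG- and 5.08 CPM (26 UMIs) in splenic B220-2NBDG- cells. The bone marrow interval of 23.8 to 32.7 CPM lay above those of all 4 splenic libraries, which together ran from 3.32 to 9.94 CPM and overlapped one another. A single bone marrow cell carried 20 of the 158 UMIs; without it the library stood at 24.5 CPM.

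**Figure D1:**
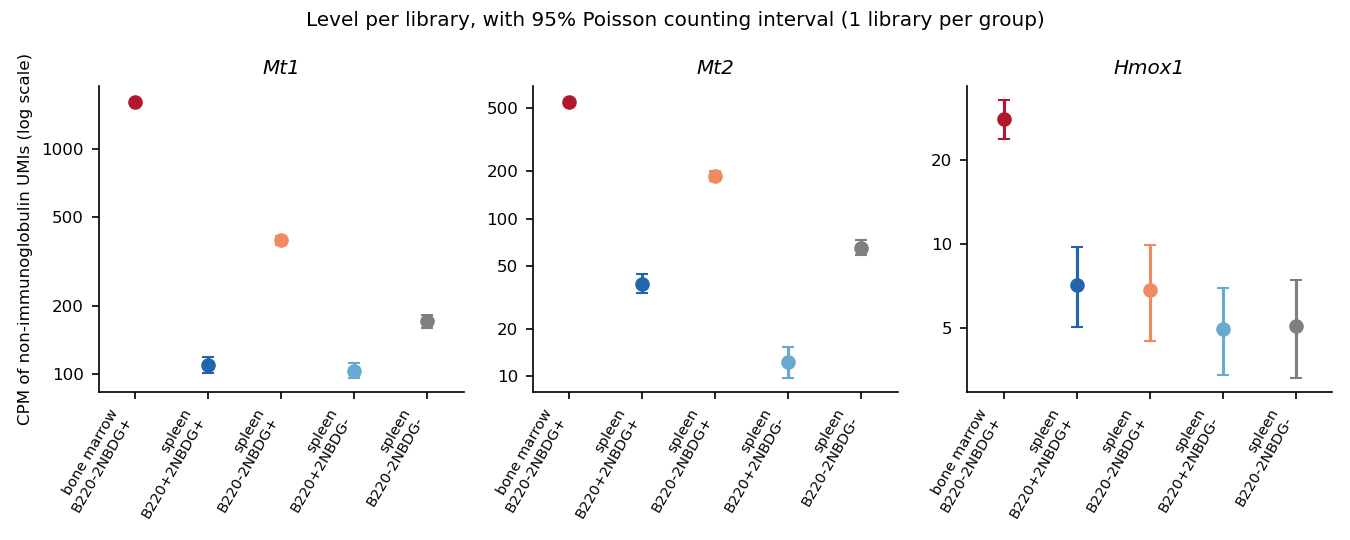
Levels of Mt1, Mt2 and Hmox1 in the 5 libraries, in CPM of non-immunoglobulin UMIs on log axes that differ in range between panels; points are single libraries and bars are 95% Poisson counting intervals. Bone marrow B220-2NBDG+ cells stand highest for each gene, at 1624, 547 and 28.0 CPM, and the 4 splenic libraries are spread for Mt1 and Mt2 but overlap for Hmox1.

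Bone marrow was set against spleen within B220-2NBDG+ cells, with 1 library each, so site and library cannot be told apart. A gene was counted as different between 2 libraries when its CPM ratio was at least 2, and the library with more of it held 25 CPM and 50 UMIs or more. Mt1 was 4.14-fold higher in bone marrow than in spleen (95% interval 3.92 to 4.37), Mt2 2.92-fold (2.70 to 3.17) and Hmox1 4.09-fold (2.71 to 6.40). All 3 genes were counted as higher, beside 41 of 3490 genes tested (1.17%) that were higher in bone marrow and 1.40% that were lower; since the genes were picked with these levels known, nothing is read from that contrast. The Hmox1 call rests on the level required: without the highest cell of each library, or with scaling by all UMIs, the log2 ratio was 2.20 or 1.92 but bone marrow fell below 25 CPM and 2 genes were counted. The differences were present within antibody classes: among IgM cells Mt1 stood at 2078 CPM in bone marrow and 494 CPM in spleen, a ratio of 4.20, and among IgA cells at 1443 CPM in bone marrow and 167 CPM in spleen, a ratio of 8.64. Hmox1 in IgM cells had 21.2 CPM in bone marrow and 7.0 CPM in spleen, a ratio of 3.03 (1.68 to 5.69) that rests on 40 and 17 UMIs and falls short of the 25 CPM required.

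Glucose analog uptake was compared in spleen within each B220 gate. In B220- cells both metallothionein genes were higher with 2NBDG uptake: Mt1 had 392 CPM in 2NBDG+ and 172 CPM in 2NBDG- cells, a ratio of 2.29 (2.1 to 2.49), and Mt2 had 187 CPM in 2NBDG+ and 65.5 CPM in 2NBDG- cells, a ratio of 2.86 (2.51 to 3.26). Over all 3687 genes tested in that comparison, 0.895% were higher and 2.12% lower in 2NBDG+ cells. In B220+ cells the pair parted. Mt2 had 38.8 CPM in 2NBDG+ and 12.3 CPM in 2NBDG- cells, a ratio of 3.16 (2.44 to 4.12), while Mt1 had 109 CPM in 2NBDG+ and 103 CPM in 2NBDG- cells, a ratio of 1.06 (0.948 to 1.18) whose direction turned with scaling by all UMIs and without the highest cell of each library. Among the 3987 genes tested there, 1.15% were higher and 4.61% lower in 2NBDG+ cells. Hmox1 did not reach 25 CPM in any splenic library and was not tested in these comparisons; its ratios of 2NBDG+ over 2NBDG- cells were 1.44 (0.880 to 2.36) in B220+ and 1.34 (0.755 to 2.40) in B220- cells. The B220+2NBDG- library also held most of the cycling cells, 178 of its cells against 16 in B220+2NBDG+; leaving cycling cells out gave ratios of 3.06 for Mt2 and 1.14 for Mt1.

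B220+ cells had less metallothionein transcript than B220- cells of the same glucose gate. Among splenic 2NBDG+ cells Mt1 stood at 109 CPM in B220+ and 392 CPM in B220- cells and was 3.59-fold lower (3.26 to 3.95), and Mt2 stood at 38.8 CPM in B220+ and 187 CPM in B220- cells and was 4.82-fold lower (4.13 to 5.64). In that comparison 2.45% of 3715 genes were higher and 1.48% lower in B220+ cells. Among 2NBDG- cells Mt2 was 5.32-fold lower in B220+ cells (4.17 to 6.86), at 12.3 CPM against 65.5 CPM. Mt1 was 1.66-fold lower there (1.5 to 1.84), at 103 CPM in B220+ and 172 CPM in B220- cells, and did not reach the 2-fold rule. Of the 4026 genes tested among 2NBDG- cells, 5.91% were higher and 3.18% lower in B220+ cells. Hmox1 ratios of B220+ over B220- cells were 1.04 in 2NBDG+ and 0.974 in 2NBDG- cells, with intervals of 0.621 to 1.77 and 0.565 to 1.70. Scaling by all UMIs in place of non-immunoglobulin UMIs moved the median log2 ratio of all genes to -0.79 for glucose analog uptake within B220+ cells and to 0.81 for the B220 gates of 2NBDG- cells, and neither comparison then counted a member. The Mt2 log2 ratios under that scaling were 1.07 and -1.88, still past 2-fold, with levels below the 25 CPM required.

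Bone marrow B220-2NBDG+ cells had the largest share of cells with metallothionein transcript of the 5 libraries. To compare shares at equal depth, cells were thinned to 1000 non-immunoglobulin UMIs, which left out shallower cells, 3 in bone marrow B220-2NBDG+, 10 in splenic B220+2NBDG+, 2 in splenic B220-2NBDG+, 5 in splenic B220+2NBDG- and 13 in splenic B220-2NBDG-. At that depth a UMI of Mt1 or Mt2 was found in 52.0% of bone marrow B220-2NBDG+, 8.69% of splenic B220+2NBDG+, 28.0% of splenic B220-2NBDG+, 6.20% of splenic B220+2NBDG- and 12.7% of splenic B220-2NBDG- cells. Without thinning the share was 85.1% in bone marrow B220-2NBDG+, 27.5% in splenic B220+2NBDG+, 51.3% in splenic B220-2NBDG+, 19.5% in splenic B220+2NBDG- and 26.9% in splenic B220-2NBDG- cells. Hmox1 was found in 2.14% of thinned bone marrow cells and in 0.248% to 0.673% of the cells of the splenic libraries. A cell type that should lack these transcripts was represented by the 8 T cell-like cells alone, which had no UMI of the 3 genes; 0 of 8 cells allows a share of up to 37.5%, so the level that free RNA gives could not be set from them.

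Mt1 was unevenly spread over bone marrow cells. The median bone marrow cell had 3 Mt1 UMIs and the highest had 252. Cells with at least 10 Mt1 UMIs numbered 230 (24.5%) in bone marrow B220-2NBDG+, 3 (0.266%) in splenic B220+2NBDG+, 41 (4.59%) in splenic B220-2NBDG+, 15 (1.23%) in splenic B220+2NBDG- and 14 (1.08%) in splenic B220-2NBDG- cells. The 230 bone marrow cells carried 81.6% of that library's Mt1 UMIs, and the 41 splenic B220-2NBDG+ cells carried 44.5% of theirs. In the splenic B220+2NBDG+ library 1 cell alone held 70 of 600 Mt1 UMIs, and the level without it was 96.7 CPM. Among the 230 bone marrow cells 47.4% were IgA, 6.96% IgG and 43.0% IgM, while of all bone marrow cells 59.0% were IgA, 8.96% IgG and 31.3% IgM. Predicted doublets made up 9 of the 230. Cells with an Mt1 UMI were deeper than those without, with medians of 16399 and 12626 UMIs in bone marrow.

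**Figure D2:**
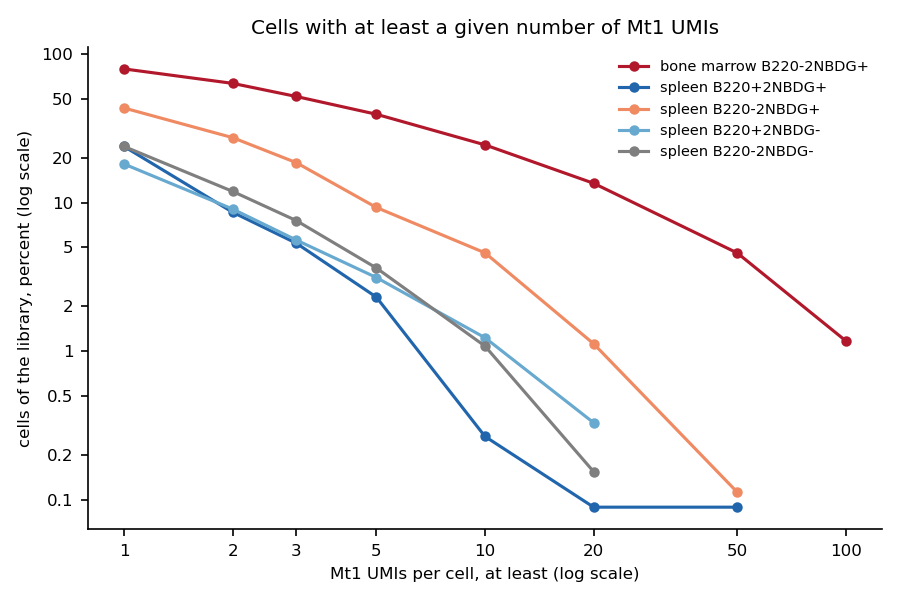
Share of the cells of each library, in percent on a log axis, that hold at least the number of Mt1 UMIs on the log x axis, without thinning; lines are the 5 libraries and points with a share of 0 are not drawn. At 10 UMIs the share is 24.5% in bone marrow B220-2NBDG+, 4.59% in splenic B220-2NBDG+ and 0.266% to 1.23% in the other libraries, and bone marrow is the library with cells at 100 UMIs or more (1.17%).

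The balance between the 2 metallothioneins was not the same in every library. For each Mt2 UMI there were 2.97 Mt1 UMIs in bone marrow B220-2NBDG+ cells (95% interval 2.85 to 3.10), 2.82 in splenic B220+2NBDG+ (2.41 to 3.31), 2.1 in splenic B220-2NBDG+ (1.92 to 2.29), 8.39 in splenic B220+2NBDG- (6.67 to 10.7) and 2.62 in splenic B220-2NBDG- cells (2.31 to 2.98). The splenic B220+2NBDG- interval lay above those of the other 4, and the splenic B220-2NBDG+ interval lay below them. Within splenic B220+2NBDG- cells the ratio was 3.11 in IgA cells, from 9 Mt2 UMIs, 6.77 in IgG and 10.2 in IgM cells. It was 10.6 in cycling and 7.62 in other cells of that library. The IgM ratios of the other libraries lay between 2.05 and 2.83, so the higher ratio of splenic B220+2NBDG- cells was present within IgM cells and in cells not called cycling. The Rps18-ps3 and mt-Atp8 pattern was shared by splenic B220+2NBDG- cells, with the highest ratio, and splenic B220-2NBDG+ cells, with the lowest. The part of that split in the ratios was not tested.

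**Figure D3:**
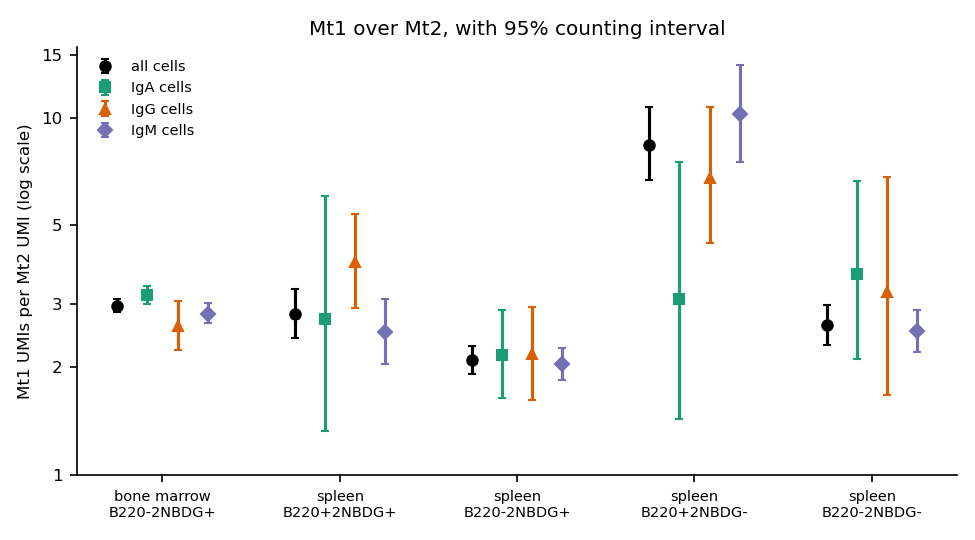
Mt1 UMIs per Mt2 UMI (log axis) in each library, over all cells and within IgA, IgG and IgM cells; bars are 95% counting intervals. Splenic B220+2NBDG- cells stand at 8.39 over all cells and 10.2 within IgM cells, and the other 4 libraries lie between 2.1 and 2.97 over all cells.

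Co-detection was among the values that chose these genes and is given as a description, with cells not taken as replicates. At 1000 UMIs per cell both were detected in 182 bone marrow B220-2NBDG+ cells where independence gives 110, in 6 splenic B220+2NBDG+ cells where it gives 1.84, in 68 splenic B220-2NBDG+ cells where it gives 26.9, in 2 splenic B220+2NBDG- cells where it gives 0.506, and in 21 splenic B220-2NBDG- cells where it gives 5.16. The odds ratio was 5.51 in bone marrow, 4.16 in splenic B220+2NBDG+, 6.25 in splenic B220-2NBDG+, 4.91 in splenic B220+2NBDG- and 7.36 in splenic B220-2NBDG- cells. Of the bone marrow cells with Mt2, 74.9% also had Mt1. Pearson correlations of log2(CPM + 100) over the cells of a library ran from 0.32 in splenic B220+2NBDG- (1215 cells) to 0.73 in bone marrow (938 cells), values that share each cell's depth. In bone marrow 15 of the 20 cells with Hmox1 had Mt1, where independence gives 9.09, an odds ratio of 3.70 (1.33 to 10.3). Each splenic library had at most 2 cells with both Hmox1 and Mt1 at that depth, too few to compare. At 2000 UMIs per cell the odds ratio was 2.07 (0.967 to 4.45) in bone marrow. It was 4.43 (1.43 to 13.8) in splenic B220+2NBDG+ cells, from 5 cells with both, and 1.25 to 1.54 in the other splenic libraries, with intervals that included 1. Over cells, Hmox1 and Mt1 correlated at 0.21 in bone marrow and at 0.02 to 0.05 in the 4 splenic libraries.

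Macrophages express Hmox1 strongly, so their markers were read beside it. The 13 macrophage genes summed to 41.6 CPM in bone marrow B220-2NBDG+, 33.4 in splenic B220+2NBDG+, 26.6 in splenic B220-2NBDG+, 37.5 in splenic B220+2NBDG- and 31.3 in splenic B220-2NBDG- cells. Cd68, a lysosomal protein that is not restricted to macrophages, gave 21 to 37.2 CPM of each sum. Adgre1 (F4/80) and Vsig4 were at 0 in every library, and C1qa had at most 0.759 CPM. C1qb had at least 5.29 CPM in each splenic B220+ library, against 0.885 to 2.28 CPM in the B220- libraries. In bone marrow the sum was 57.2 CPM in Hmox1-positive and 39.5 CPM in Hmox1-negative cells, of which Cd68 gave 51.3 CPM in positive and 35.2 CPM in negative cells. For Mt1 the bone marrow sum was 43.9 CPM in positive and 30.4 CPM in negative cells. In the 4 splenic libraries it was 18.3 to 37.5 CPM in Hmox1-positive and 26.8 to 38.1 CPM in Hmox1-negative cells. Erythroid genes summed to 4.40 CPM in Hmox1-positive and 5.44 CPM in Hmox1-negative bone marrow cells. In the splenic B220+2NBDG- library the cell cycle list was higher in positive cells, at 4912 CPM against 2645 CPM with and without Hmox1 and 4216 CPM against 2241 CPM with and without Mt1, and its part in those values was not tested.

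Mt1 differed with antibody class within every library. In bone marrow B220-2NBDG+ cells Mt1 had 1443 CPM in IgA, 945 CPM in IgG and 2078 CPM in IgM cells. In splenic 2NBDG+ cells it had 61.5 CPM in IgA, 88.5 in IgG and 146 in IgM cells of the B220+ gate, and 167 CPM in IgA, 294 in IgG and 494 in IgM cells of the B220- gate. In splenic 2NBDG- cells it had 68.7 CPM in IgA, 72.2 in IgG and 129 in IgM cells of the B220+ gate, and 106 CPM in IgA, 124 in IgG and 185 in IgM cells of the B220- gate. IgM cells were the highest of the 3 classes in each library. IgA cells were below IgM cells in 5 of 5 libraries, by log2 ratios of -1.57 to -0.53, and IgG cells were below IgM cells in 5 of 5, by -1.14 to -0.58. IgA against IgG cells had no common sign, with IgA higher in 1 of 5 libraries, bone marrow.

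Mt2 followed the same pattern, with 1 exception. It had 453 CPM in IgA, 361 in IgG and 733 in IgM cells of bone marrow, and 22.5 CPM in IgA, 22.4 in IgG and 58.2 in IgM cells of splenic B220+2NBDG+. It had 76.9 CPM in IgA, 135 in IgG and 241 in IgM cells of splenic B220-2NBDG+, and 29.2 CPM in IgA, 38.1 in IgG and 73.4 in IgM cells of splenic B220-2NBDG-. In splenic B220+2NBDG- it had 22.1 CPM in IgA, 10.7 in IgG and 12.7 in IgM cells, and IgA cells stood higher on 9 UMIs, with each ratio between classes of that library having an interval that included 1. IgG cells were below IgM cells in 5 of 5 libraries and IgA cells in 4 of 5. In a fit across libraries with the library as a block, the log2 fold changes of IgA over IgM were -0.81 ± 0.14 for Mt1 and -0.86 ± 0.18 for Mt2, and those of IgG over IgM were -0.87 ± 0.14 and -1.0 ± 0.17 (approximate SE, from the F statistic; 5 libraries).

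For Hmox1 the classes gave no common order. It had 28.1 CPM in IgA, 42.0 in IgG and 21.2 in IgM cells of bone marrow from 87, 25 and 40 UMIs. Splenic values of the 3 classes ran from 1.01 to 18.1 CPM and rested on 1 to 21 UMIs each. IgA exceeded IgM in 4 of 5 libraries and IgG exceeded IgM in 2 of 5, and the fitted log2 fold changes were 0.24 ± 0.37 and 0.15 ± 0.37. IgM cells of bone marrow were thus high for the metallothioneins but, with an interval of the IgA over IgM ratio from 0.902 to 1.98, were not separated from IgA cells for Hmox1. The bone marrow ratio of IgG over IgM cells was 1.98, with an interval of 1.15 to 3.35.

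**Figure D4:**
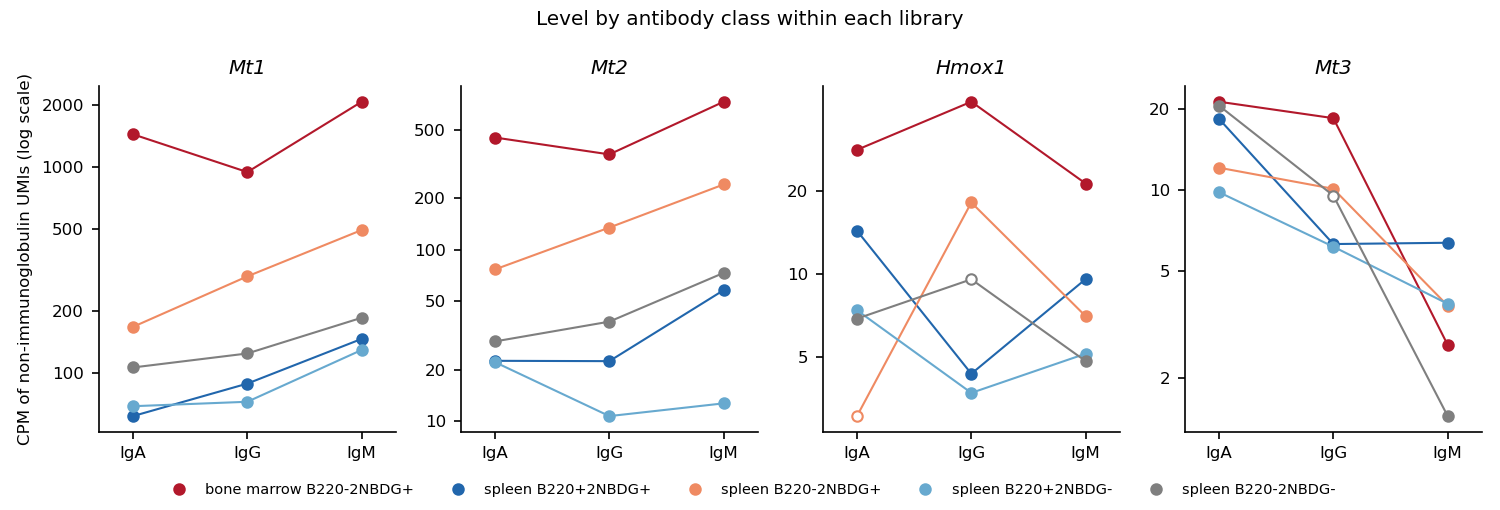
Levels of Mt1, Mt2, Hmox1 and Mt3 in IgA, IgG and IgM cells of each library, in CPM of non-immunoglobulin UMIs on log axes; lines join the classes of 1 library, and open points rest on fewer than 3 UMIs and are drawn at the floor of 3 UMIs. Mt1 is lower in IgA and IgG than in IgM cells in 5 of 5 libraries, and Mt3 is higher in IgA than in IgM cells in 5 of 5.

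The remaining metallothioneins were then read. Mt4 had no UMI in any library. Mt3 had 15.2 CPM in bone marrow B220-2NBDG+, 7.11 CPM in splenic B220+2NBDG+, 6.58 CPM in splenic B220-2NBDG+, 4.95 CPM in splenic B220+2NBDG- and 3.52 CPM in splenic B220-2NBDG- cells, from 18 to 86 UMIs. Mt3 had 21.3 CPM in IgA and 2.65 CPM in IgM cells of bone marrow, 18.4 and 6.36 CPM in splenic B220+2NBDG+, 12.1 and 3.71 CPM in splenic B220-2NBDG+, 9.81 and 3.77 CPM in splenic B220+2NBDG-, and 20.6 and 1.44 CPM in splenic B220-2NBDG- cells. IgA cells were higher in 5 of 5 libraries, although most of these counts were small (4 to 66 UMIs in IgA and 5 to 14 in IgM cells). By edgeR's quasi-likelihood test with the library as a block, the log2 fold change of IgA over IgM was 2.29 ± 0.37 with a Benjamini-Hochberg adjusted p of 1.1e-04 over 7945 genes, and over the alternatives tried the adjusted p ranged from 2.2e-06 to 0.0030. IgA against IgG gave 1.30 ± 0.40 with an adjusted p of 0.041, a call that was lost with DESeq2 (adjusted p = 0.064), without the block, and when any 1 of the 4 splenic libraries was left out, with adjusted p of 0.069 to 0.23. IgG against IgM gave 0.99 ± 0.41 with an adjusted p of 0.18. The labels do not state that different mice went into each library. The p-values from these fits therefore measure the spread of the within-library difference over these 5 libraries, and not a spread between mice.

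Genes of heme, iron, metal and stress pathways, 153 in 13 lists without the 3 members, were counted in the same fits. Of the 102 with enough counts, 6 were higher and 12 lower in IgA than in IgM cells, beside 6.29% and 6.85% of all genes tested. IgG against IgM gave 5 higher and 8 lower (2.59% and 3.68% of all genes), and IgA against IgG gave 4 higher and 10 lower (4.63% and 4.95%). The median log2 fold change of the lists was -0.05 for IgA over IgM and 0.01 for IgG over IgM, against -0.00 and 0.00 over all genes.

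Of 7 heme breakdown genes tested, 3 were lower in IgA than in IgM cells (6.85% of all genes) and 3 were lower in IgG than in IgM cells (3.68%). None was higher in either, beside 6.29% and 2.59% of all genes. Blvrb, a biliverdin reductase that acts after heme oxygenase, was lower in IgA than in IgM cells by -0.80 ± 0.16 (log2, edgeR adjusted p = 0.0015) and in IgG than in IgM cells by -0.76 ± 0.16 (adjusted p = 0.0033), with the same sign in 5 of 5 libraries. The Blvrb call of IgA against IgM was lost without the block (edgeR adjusted p = 0.20), as was that of Slc48a1 below (0.11). Blvrb levels in bone marrow were 32.0 CPM in IgA, 47.1 in IgG and 61.5 in IgM cells. Slc48a1, the heme transporter HRG1, was lower by -0.68 ± 0.15 in IgA and -0.59 ± 0.14 in IgG than in IgM cells (edgeR adjusted p = 0.0020 and 0.010), and the IgG call was lost without splenic B220+2NBDG+ cells (adjusted p = 0.10), without splenic B220-2NBDG+ cells (0.050), without the block (0.33) and with classes called at 90% dominance (0.12). Hmox2, the constitutive heme oxygenase, was lower in IgA cells than in IgM (-0.43 ± 0.13) and IgG cells (-0.57 ± 0.14), with edgeR adjusted p of 0.035 and 0.013. Its IgA against IgM call was lost in 7 of the alternatives tried, with adjusted p up to 0.19, and its IgA against IgG call was lost without any 1 of 3 splenic libraries, B220+2NBDG+, B220+2NBDG- or B220-2NBDG- (adjusted p of 0.053 to 0.077). Pgrmc1, a heme-binding membrane protein, was lower in IgG than in IgM cells by -0.46 ± 0.13 (edgeR adjusted p = 0.038).

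Among regulators, Nfe2l1, a relative of NRF2, was lower by -0.89 ± 0.22 in IgA and -1.0 ± 0.22 in IgG than in IgM cells (edgeR adjusted p = 0.0082 and 0.0050), and both calls were lost without splenic B220+2NBDG+ cells (adjusted p = 0.051 and 0.093). The IgA call was also lost without the block (edgeR adjusted p = 0.099). Of 12 NRF2 targets tested, 3 were higher and 0 lower in IgA than in IgM cells, beside 6.29% and 6.85% of all genes. They were Txn1 (thioredoxin), Tkt and G6pdx (enzymes of the pentose phosphate pathway), by 0.41 ± 0.10, 0.42 ± 0.13 and 0.88 ± 0.29 (edgeR adjusted p = 0.0078, 0.029 and 0.045). Txn1 was higher in 3 of 5 libraries and Tkt and G6pdx in 4 of 5. Of 6 STAT3 and cytokine signalling genes tested, 2 were lower in IgA than in IgM cells and 0 higher, with a median log2 fold change of -0.41. IgA against IgG also gave 2 lower and 0 higher, with a median of -0.55. In IgG against IgM 0 passed, with a median of 0.05. A link of this list to the metallothionein levels was not tested. The plasma selenium carrier Selenop was lower in IgA than in IgM cells by -2.77 ± 0.17 (edgeR adjusted p = 1.2e-10) and the small heat shock protein gene Hspb1 by -1.57 ± 0.32 (adjusted p = 0.0011). Without the block the Selenop call held (edgeR adjusted p = 6.9e-05) and the Hspb1 call was lost (0.11). Of 13 zinc handling genes tested none passed in IgA against IgM, where 6.29% of all genes were higher and 6.85% lower. Slc39a4, a zinc importer, was lower in IgG than in IgM cells by -0.79 ± 0.20 (edgeR adjusted p = 0.016), beside 3.68% of all genes. None of the 10 iron handling genes tested passed between IgA or IgG and IgM cells, and 1 was higher in IgA than in IgG cells, beside 4.63% of all genes. Lists this short cannot set a count of 0 apart from the shares over all genes.

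Between populations the same lists were counted by the 2-fold rule, with the share of all genes given beside each count. In bone marrow over spleen 0 genes were higher and 2 lower of 61 tested, beside 1.17% and 1.40% of all genes. The median log2 ratio was -0.12, against -0.16 over all genes. Selenop was 3.33-fold lower in bone marrow (79.5 CPM, against 265 CPM in spleen) and Hspb1 2.43-fold lower (19.6 against 47.8 CPM). Both were also lower in IgA than in IgM cells, and the class mix differed. Bone marrow held 553 IgA and 294 IgM cells, and splenic B220-2NBDG+ held 214 and 558. The part of class in these 2 ratios was not tested. For 2NBDG in B220- cells 0 of 64 were higher (0.895% of all genes) and 1 was lower (2.12%), Gclm, a subunit of the glutathione-making ligase, at 31.1 CPM in 2NBDG+ and 74.1 CPM in 2NBDG- cells. For 2NBDG in B220+ cells 2 of 62 were higher (1.15% of all genes), Hspa1a by 2.68-fold and Dusp1 by 2.27-fold, and the chaperonin gene Hspd1 was 2.08-fold lower, beside 4.61% of all genes. Between B220 gates of 2NBDG+ cells 1 of 64 was higher (2.45% of all genes) and 0 lower (1.48%), the higher one being the secreted glutathione peroxidase Gpx3, at 101 CPM in B220+ and 8.61 CPM in B220- cells. Between B220 gates of 2NBDG- cells 3 of 65 were higher (5.91% of all genes), among them Gpx3 and the copper importer Slc31a1, and 4 were lower (3.18%), Hspb1, Tsc22d3 (a glucocorticoid target), Junb and Selenop. Mtf1, which encodes the metal-sensing factor, lay between 11.9 and 14.4 CPM in the 5 libraries, Nfe2l2 (NRF2) was at 15.2 CPM in bone marrow and 24.8 to 27.3 CPM in the splenic libraries, and Bach1 and Bach2 had at most 4.43 and 2.93 CPM. Over the scalings, filters and cell subsets tried, the counts of list genes moved between 0 and 18 per comparison and direction.

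Cells with an Mt2 UMI after thinning were compared with cells without one inside each library. This asks what else differs with Mt2 detection in plasma cells of the same sort. Cells were split by an Mt2 UMI at 1000 thinned UMIs, giving 243 positive and 692 negative bone marrow cells, 27 and 1089 splenic B220+2NBDG+ cells, 123 and 769 splenic B220-2NBDG+ cells, and 49 and 1233 splenic B220-2NBDG- cells. The negative cells were not all free of Mt2. Before thinning, an Mt2 UMI was held by 545 bone marrow, 116 splenic B220+2NBDG+, 279 splenic B220-2NBDG+ and 141 splenic B220-2NBDG- cells. Splenic B220+2NBDG- cells had 9 positive cells, under the 20 required, and were not fitted. Of 8146 genes, 19 were higher (0.233%) and 20 lower (0.246%) in Mt2-positive cells by edgeR's quasi-likelihood test at an adjusted p of 0.05 with the library as a block. Of these 39, 13 higher and 16 lower genes had the same sign in all 4 libraries. Without splenic B220-2NBDG- cells 5 genes were higher and 5 lower, and without any library block 0 passed. Mt1 and Hmox1 are described only: Mt1 was higher by a log2 fold change of 2.28 ± 0.08 with the same sign in 4 of 4 libraries, while the 1.36 ± 0.24 of Hmox1 came with a higher level in 1 library, bone marrow, and a lower one in 3.

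Slc3a2, the heavy chain of the amino acid transporter CD98, was higher in Mt2-positive cells of each fitted library. It had 1587 CPM in Mt2-positive and 1170 CPM in Mt2-negative bone marrow cells, 2700 and 1689 CPM in splenic B220+2NBDG+, 2633 and 2103 CPM in splenic B220-2NBDG+, and 4227 and 1892 CPM in splenic B220-2NBDG- cells. Positive cells were thus higher in 4 of 4 libraries, by 0.56 ± 0.07 (log2, edgeR adjusted p = 1.1e-07). Also higher were the translation repressor Eif4ebp1 (0.47 ± 0.10, adjusted p = 0.0042) and the cyclin gene Ccnd2 (0.42 ± 0.10, adjusted p = 0.018). Both calls were lost with DESeq2 (adjusted p = 0.076 and 0.38) and without splenic B220-2NBDG- cells (edgeR adjusted p = 0.41 and 0.084). Cdkn1a, the p21 cell cycle inhibitor, had a fold change of 1.72 ± 0.41, the largest of the 10 named higher genes (adjusted p = 0.019) on few counts, with 19 UMIs in positive cells of bone marrow, 2 in each splenic 2NBDG+ library and 7 in splenic B220-2NBDG- cells. In splenic B220-2NBDG+ cells its levels were near equal, at 3.55 CPM in positive and 3.54 CPM in negative cells. The other named higher genes were Dgkg (a diacylglycerol kinase), Pgam2 (a phosphoglycerate mutase), Il13ra1 (an interleukin 13 receptor chain), Serpina3g (a protease inhibitor), Ly6k and Tmem176a, with fold changes of 0.36 to 1.34 and adjusted p of 0.0058 to 0.039.

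H2-Aa and H2-Ab1, MHC class II genes whose products present antigen and which fall as B cells become mature plasma cells, were lower in Mt2-positive cells. H2-Aa had 12.1 CPM in positive and 39.3 CPM in negative bone marrow cells, 322 and 527 CPM in splenic B220+2NBDG+, 19.5 and 78.3 CPM in splenic B220-2NBDG+, and 32.1 and 147 CPM in splenic B220-2NBDG- cells, a fitted change of -1.41 ± 0.15 (edgeR adjusted p = 2.0e-10). H2-Ab1 was lower by -0.58 ± 0.08 (adjusted p = 1.9e-07), again in 4 of 4 libraries. The lymphotoxin gene Ltb was lower by -1.70 ± 0.29 (adjusted p = 1.2e-04), a call lost without bone marrow (adjusted p = 0.19) and without splenic B220-2NBDG- cells (0.069). With positive cells called by Mt1 in place of Mt2 the Ltb value was -0.32 ± 0.30 (adjusted p = 0.87). Ccr10 and Itgb7, a chemokine receptor and an integrin chain of mucosal homing, were lower by -0.83 ± 0.11 and -0.66 ± 0.14 (adjusted p = 2.0e-07 and 0.0058), and Klf2, a factor that controls lymphocyte trafficking, by -0.68 ± 0.14 (adjusted p = 0.0031). The other named lower genes were Gm8369, Atp1b1 (a sodium pump chain), Tmx4 (an endoplasmic reticulum thioredoxin) and Tmem39a, with fold changes of -1.42 to -0.73. Of the 20 named higher and lower genes, 4 passed with DESeq2: Ccr10, H2-Aa, H2-Ab1 and Slc3a2. Leaving out 1 library left 6 to 14 of them past the edgeR test.

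Antibody class and depth moved with this split. Median UMIs per cell were 16618 in Mt2-positive and 15208 in Mt2-negative bone marrow cells, and 15314 and 13781 in splenic B220+2NBDG+ cells. They were 11311 and 10211 in splenic B220-2NBDG+ cells, and 12112 and 9875 in splenic B220-2NBDG- cells. The part of depth in the results was not tested. IgM cells made up 39.9% of Mt2-positive and 28.3% of Mt2-negative cells in bone marrow, 63.0% and 38.7% in splenic B220+2NBDG+, 80.5% and 59.6% in splenic B220-2NBDG+, and 93.9% and 83.0% in splenic B220-2NBDG- cells. With the block set to library by class, Slc3a2 was still higher by 0.37 ± 0.08 (adjusted p = 0.018) and H2-Aa, H2-Ab1 and Ltb lower by -1.91 ± 0.22, -0.50 ± 0.08 and -1.92 ± 0.36 (adjusted p = 1.6e-07, 1.3e-04 and 0.0030), and these were the 4 of 16 named genes tested that passed. The Ccr10 difference shrank to -0.39 ± 0.13 (edgeR adjusted p = 0.35) in that fit. Among IgM cells of the same libraries alone it was -0.08 ± 0.27 (adjusted p = 0.98). Of the 106 pathway list genes tested, 1 passed: Gpx4, the lipid peroxide glutathione peroxidase, was higher in Mt2-positive cells by 0.29 ± 0.07 (edgeR adjusted p = 0.033), a call that held with positive cells called at 2000 UMIs or by Mt1 and was lost under the other alternatives, among them DESeq2 (adjusted p = 0.076), the leaving out of any 1 library (0.055 to 0.37) and the block of library by class (0.45). Mt3 did not pass, at -0.05 ± 0.33.

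**Figure D5:**
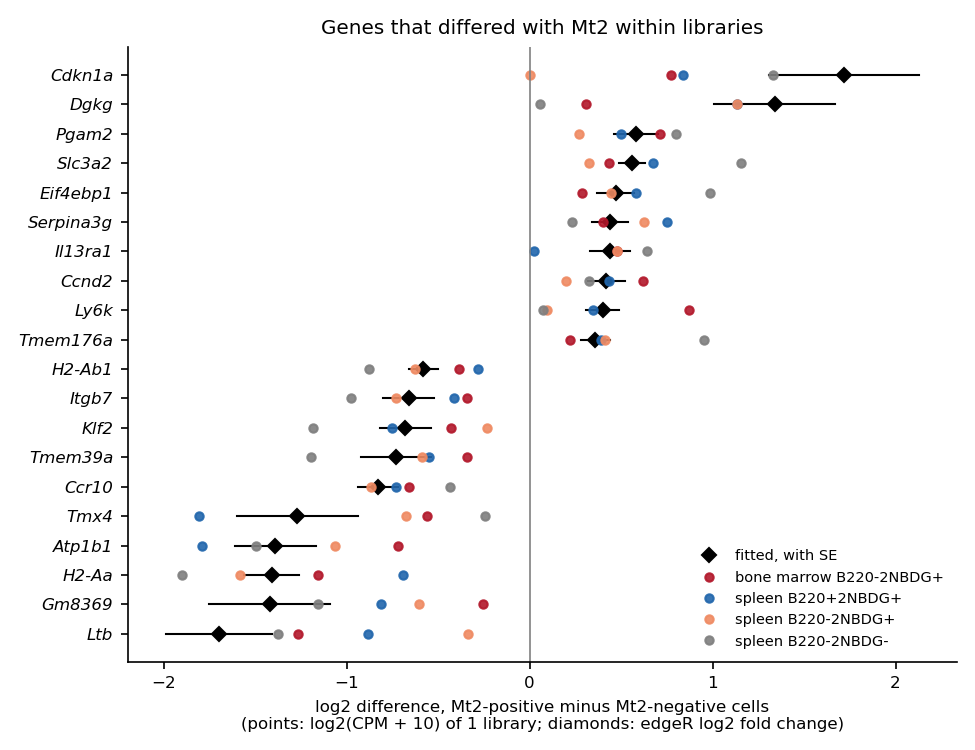
Difference between Mt2-positive and Mt2-negative cells of the same library for the 20 named genes, on the log2 scale; coloured points are single libraries as log2(CPM + 10), diamonds are edgeR log2 fold changes over 4 libraries and lines are 1 SE either side. Slc3a2 lies to the right of 0 and H2-Aa and H2-Ab1 to the left in all 4 libraries. The fitted value of Cdkn1a exceeds its points, and the added 10 CPM shrinks the points of low-count genes. The Cdkn1a libraries also differ, with 3.55 CPM in positive and 3.54 CPM in negative splenic B220-2NBDG+ cells.

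Genes whose levels ran most like each member were found over 15 profiles, the IgA, IgG and IgM cells of the 5 libraries, among 1026 genes with at least a 2-fold range over the libraries. The measure was Pearson's r of log2(CPM + 10), given without p because profiles of 1 library share its depth and handling. Mt1 and Mt2 were each other's nearest gene (r = 0.97). After Mt2, Mt1 was nearest to Ly6i (0.84), Reep3 (0.81), Phf1 (0.81) and Dock10 (0.80). After Mt1, Mt2 was nearest to Ly6i (0.89), Tmem176a (0.86), Mgll (0.85) and Phf1 (0.85). Ly6i, a Ly6 family surface protein, had 65.9 CPM in bone marrow B220-2NBDG+, 12.0 in splenic B220+2NBDG+, 50.1 in splenic B220-2NBDG+, 4.95 in splenic B220+2NBDG- and 20.5 in splenic B220-2NBDG- cells, the same order of libraries as Mt2. Hmox1 was nearest to Mt1 (0.72) and Mt2 (0.70), followed by the lysosomal genes Scarb2 and Ctsl and the tight junction gene Cldn7 (0.66 each).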

How the data were processed

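Single-cell RNA-seq libraries (10x Genomics 3' chemistry) of 5 sorted plasma cell populations, 1 library each, were analysed from the raw UMI counts per gene and cell that the authors deposited; these had been made with Cell Ranger 2.1 on GRCm38, per the submitters' processing notes. The 3 genes and the pathway lists were chosen with earlier results of these data known. Cells needed 500 UMIs, 200 genes and at most 10% mitochondrial UMIs. They were clustered with scanpy 1.11.5 (2000 variable genes, 30 components, 15 neighbours, resolution 1) to find other cell types, and 8 T cell-like cells were left out; 69 predicted doublets (1.26%) were kept. Totals were 9451886 to 15591435 UMIs per library, and 266 immunoglobulin genes were left out of the CPM totals. A cell took the antibody class with at least 70% of at least 10 heavy chain UMIs, and a cell with 3 cell cycle UMIs was called cycling.

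Populations were compared by CPM ratios with exact conditional binomial 95% intervals and the 2-fold rule, without p-values, and a count of 0 was read with a floor of 3 UMIs. Poisson and Clopper-Pearson intervals cover counting error only. Summed counts per library were tested with edgeR 4.0.16 (R 4.3.3, quasi-likelihood, Benjamini-Hochberg adjustment, library as a block) between Mt2-positive and Mt2-negative cells and between antibody classes, in groups of at least 20 cells; scripts were tested on simulated data. Alternatives were DESeq2 1.42.0, other scalings, filters, thinning depths, class limits and cell subsets, and leaving out each library. Leaving out the highest cell of a gene in each library was chosen after seeing the data. Named genes were all 3 members; for Mt2-positive cells the 10 highest and 10 lowest fold changes among genes past the test with 1 sign in every library; the 5 genes most like each member; and list genes past the rule or test, up to 4 per list and comparison. Of the list genes past the rule, 1 is not reported here.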

Additional observations from a re-analysis of the deposited data

How the results depend on the processing

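With 1 library per population, no between-population difference has a replicate, and low counts limit Hmox1 and Mt3. No paired analysis was possible because each population has 1 replicate; the fits between cells of the same library used the library as a block. Scaling by all UMIs, IgA cells only and IgG cells only each left 0 members past the 2-fold rule, in place of 1, for 2NBDG in B220+ cells (Mt2 higher) and for B220 in 2NBDG- cells (Mt2 lower). The Mt2 folds stayed past 2 with all UMIs (log2 1.07 and -1.88) and in IgG cells (ratios of 2.1 and 0.280) and missed the CPM or UMI minimum, while in IgA cells the ratios were 1.02 and 0.757. For bone marrow over spleen 2 members in place of 3 were counted with all UMIs, in IgM or IgG cells, and without the highest cell, Hmox1 missing the CPM or UMI minimum. IgA cells only left 1 in place of 2 for 2NBDG in B220- cells.

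The share of cells with Mt1 or Mt2, at 2000 UMIs, unthinned and thinned without Jchain, was 68.0%, 85.1% and 60.9% in bone marrow B220-2NBDG+, 16.0%, 27.5% and 12.1% in splenic B220+2NBDG+, 39.5%, 51.3% and 34.3% in splenic B220-2NBDG+, 12.4%, 19.5% and 8.38% in splenic B220+2NBDG-, and 20.3%, 26.9% and 15.7% in splenic B220-2NBDG- cells. Mt1 was higher in IgA than in IgG cells in 2 libraries with 90% dominance and in 3 with all UMIs, in place of 1.

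Genes past the test in Mt2-positive cells numbered 2 higher and 4 lower with DESeq2, 0 and 0 without the library block (304 genes at an unadjusted p under 0.05, against 620 with it), 31 higher with the call at 2000 UMIs, 36 higher and 44 lower with Mt1 in place of Mt2, 12 lower in IgM cells only, and 2 higher and 4 lower with library by class as the block. Leaving out 1 library gave 5 to 13 higher and 5 to 16 lower. Gm8369 changed sign to 0.50 with Mt1 in place of Mt2 and Klf2 to 0.03 in IgM cells only. The cause was not tested. The fit restricted to IgA cells was not run because 1 library had 20 cells on both sides. The fits of IgM cells only and of library by class left out splenic B220+2NBDG+ cells, with fewer than 20 positive cells in each class.

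Pathway list genes in IgA against IgM cells numbered 1 higher and 3 lower without the block. In IgG against IgM cells they numbered 0 and 0 without the block and 5 lower with 90% dominance. In IgA against IgG cells they numbered 2 higher with DESeq2, and 0 higher and 5 lower without the block. Leaving out 1 library gave 4 to 6 higher and 9 to 11 lower for IgA against IgM, 2 to 6 and 3 to 8 for IgG against IgM (lowest higher count without splenic B220-2NBDG+, lowest lower count without splenic B220+2NBDG+), and 1 to 4 and 7 to 8 for IgA against IgG (1 without splenic B220+2NBDG+ or B220-2NBDG+).

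The split of all genes past the 2-fold rule moved with scaling. For 2NBDG in B220+ cells it was 46 higher and 184 lower, against 8 and 705 with all UMIs and 88 and 158 without Jchain. For 2NBDG in B220- cells it was 33 and 78, against 33 and 31 with all UMIs. For B220 in 2NBDG+ cells it was 91 and 55, against 32 and 49 with all UMIs, 82 and 93 without Jchain and 80 and 73 with TMM. For B220 in 2NBDG- cells it was 238 and 128, against 813 and 24 with all UMIs and 173 and 219 without Jchain. For bone marrow over spleen it was 41 and 49, against 53 and 33 with TMM.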
